A study of Mus musculus with 2 samples.

Results

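The mitosis genes described here are 36 of the 32285 mouse genes counted in each library. They were taken by symbol from a list of genes of the dividing cell, and all 36 symbols were found. The gene list and its 3 sets, 9 early genes, 16 late genes and 11 assigned to neither, did not use measured values. Earlier results of these data were known when they were chosen. The genes were counted in sorted cells of skin tumors from 2 genotypes of mice. The Cre plus library has the genotype Ifngr1iProx1 and the Cre minus library has Ifngr1WT. The first label holds the names of Ifngr1, a chain of the interferon gamma receptor, and Prox1, a transcription factor of lymphatic endothelium. It is read here as a Cre driven by Prox1, which the label does not spell out. Both groups carried tumors of B16F10-OVALBUMIN/VEGFC, a mouse melanoma line named for ovalbumin and the lymphatic growth factor VEGFC, of which 500K cells were placed in the skin. At day 15, 3 tumors of each genotype were pooled, and cells negative for the dead-cell dye DAPI, positive for CD31 and negative for CD45 were sorted into 1 single-cell 3′ library per genotype. With 1 library of pooled tumors per genotype there are no replicates, so no test and no p-value is given, and every interval below is an exact 95% interval that covers counting error only. Age and sex of the mice and the time of Cre induction are not given in the sources used here.

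Mitosis is run by Cdk1 bound to cyclins A and B, which rises as DNA replication ends. Polo and Aurora kinases, condensins, kinetochores and spindle motors then separate the chromosomes, and the anaphase-promoting complex destroys the cyclins to end the division. Most mitosis genes are transcribed late in the cycle by complexes of B-Myb, FoxM1 and the Lin proteins, in which Lin54 binds a short promoter element known as the CHR. Many of these promoters also hold CCAAT, which is bound by NF-Y, a separate factor. Early genes are those whose messages already rise in S phase or early G2, and late genes those that peak as cells enter and pass through mitosis.

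The promoters of 6 members are shown because later results turn on these genes: the kinase Plk1, the spindle motor Kif11, the proliferation marker Mki67, the anaphase-promoting complex partners Cdc20 and Ube2c, and the kinetochore protein Cenpf. Each window holds 250 bases before and 50 after the start of the gene in RefSeq on GRCm38.p6 (mm10), read 5′ to 3′ on the strand of the gene. Capitals mark the CHR letters TTTGAA or their complement TTCAAA, and CCAAT or its complement ATTGG.
Plk1: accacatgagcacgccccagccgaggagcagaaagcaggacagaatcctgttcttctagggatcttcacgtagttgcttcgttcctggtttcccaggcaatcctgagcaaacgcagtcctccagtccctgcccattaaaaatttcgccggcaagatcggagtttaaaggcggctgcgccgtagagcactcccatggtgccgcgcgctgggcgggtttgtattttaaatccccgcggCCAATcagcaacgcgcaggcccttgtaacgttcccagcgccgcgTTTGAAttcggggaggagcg
Kif11: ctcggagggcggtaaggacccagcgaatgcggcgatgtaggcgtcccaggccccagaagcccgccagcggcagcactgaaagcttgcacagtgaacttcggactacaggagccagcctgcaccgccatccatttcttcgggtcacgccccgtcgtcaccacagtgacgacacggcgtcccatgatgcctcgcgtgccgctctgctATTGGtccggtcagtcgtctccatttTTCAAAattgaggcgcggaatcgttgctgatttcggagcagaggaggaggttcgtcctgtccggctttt
Mki67: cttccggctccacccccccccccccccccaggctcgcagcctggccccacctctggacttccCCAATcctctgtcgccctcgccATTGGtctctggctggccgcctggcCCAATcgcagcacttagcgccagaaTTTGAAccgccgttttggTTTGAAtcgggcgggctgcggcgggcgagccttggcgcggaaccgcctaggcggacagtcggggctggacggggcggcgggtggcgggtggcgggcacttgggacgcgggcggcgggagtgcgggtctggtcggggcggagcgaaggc
Cdc20: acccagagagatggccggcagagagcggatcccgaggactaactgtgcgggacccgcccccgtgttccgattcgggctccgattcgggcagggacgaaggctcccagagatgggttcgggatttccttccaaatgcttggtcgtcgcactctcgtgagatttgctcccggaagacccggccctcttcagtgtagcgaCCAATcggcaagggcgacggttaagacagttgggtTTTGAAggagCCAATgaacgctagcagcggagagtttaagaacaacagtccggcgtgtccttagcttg
Cenpf: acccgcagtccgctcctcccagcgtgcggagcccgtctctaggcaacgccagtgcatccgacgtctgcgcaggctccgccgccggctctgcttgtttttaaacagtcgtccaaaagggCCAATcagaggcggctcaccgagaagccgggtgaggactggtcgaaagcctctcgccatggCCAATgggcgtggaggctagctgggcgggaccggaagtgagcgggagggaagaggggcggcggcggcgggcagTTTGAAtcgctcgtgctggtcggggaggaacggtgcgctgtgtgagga
Ube2c: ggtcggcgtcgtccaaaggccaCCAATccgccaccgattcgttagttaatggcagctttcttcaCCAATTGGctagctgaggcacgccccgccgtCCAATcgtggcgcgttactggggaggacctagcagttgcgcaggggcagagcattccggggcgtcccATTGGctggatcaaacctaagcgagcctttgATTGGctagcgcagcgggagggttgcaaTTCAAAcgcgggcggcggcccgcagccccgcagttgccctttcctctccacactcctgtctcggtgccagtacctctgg
These windows lie at chr7:122159185-122159484 (plus strand), chr19:37376132-37376431 (plus), chr7:135716330-135716629 (minus), chr4:118437294-118437593 (minus), chr1:189688037-189688336 (minus) and chr2:164769679-164769978 (plus), in that order. In Ube2c, CCAAT and its complement overlap in the run CCAATTGG, so 6 matches stand in 5 places.

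RefSeq windows matched 31 of the 36 members, and Ccna2, Pbk, Aurkb, Incenp and Tpx2 had none. On both strands, TTTGAA was found in 24 of the 31 genes (77.4%), against 20.2% of all 27025 genes with a window. CCAAT was found in 24 of 31 (77.4%) against 41.1% of all genes, and both in the same gene's windows in 20 of 31 (64.5%) against 7.97%. In 40 other mitosis genes, 34 had a window and 21 of them (61.8%) held TTTGAA. Of 25 DNA replication genes with a window, 3 (12.0%) held TTTGAA and 15 (60.0%) held CCAAT. A match is a description of the letters, not a binding site, and Ccnb1, a late gene, held CCAAT but not TTTGAA in its window. Among the 6 promoters shown, the match nearest the start was TTTGAA at base 3 after the start in Cenpf, and the furthest was CCAAT at base -228 in Ube2c. The early and late members shared these letters: TTTGAA stood in 7 of 8 early genes and 10 of 15 late genes, and CCAAT in 5 of 8 and 14 of 15.

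The libraries held 2491 (Cre plus) and 2502 (Cre minus) barcodes, of which 1782 and 1552 had at least 500 genes and under 10% mitochondrial UMIs, and 1 barcode sequence was shared. Passing barcodes were given a class from marker genes that include no member, as LEC-like (lymphatic endothelium), BEC-like (blood endothelium), melanoma-like or a smaller class. The 3 main classes held 787, 208 and 537 barcodes for Cre plus and 226, 240 and 899 for Cre minus. The marker sets of these 3 classes were all detected and summed to 7888 to 19339 CPM (UMIs scaled to a class total of 1e+06) in their own class. Melanoma markers summed to 55.7 and 119 CPM in LEC-like barcodes, and endothelial markers to 85.5 and 72.4 CPM in melanoma-like barcodes, although the cells were sorted as CD31-positive. Of LEC-like barcodes, 18 and 13 lay near the gate, between 5 and 10 marker UMIs per 10000. In BEC-like barcodes it was 0 and 8, and in melanoma-like barcodes 22 and 17. No doublet caller was run. In their place, 46 and 23 barcodes with markers of several classes were set aside as mixed, and 107 and 53 stayed without a class. Ifngr1 itself was at 29.0 CPM in LEC-like barcodes of Cre plus and 46.4 CPM in Cre minus, a log2 ratio of -0.68 (-1.0 to -0.35). Its ratio was 0.27 (0.11 to 0.44) in BEC-like and -0.16 (-0.34 to 0.02) in melanoma-like barcodes. A 3′ tag outside a deleted part would not show the deletion.

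**Figure D1:**
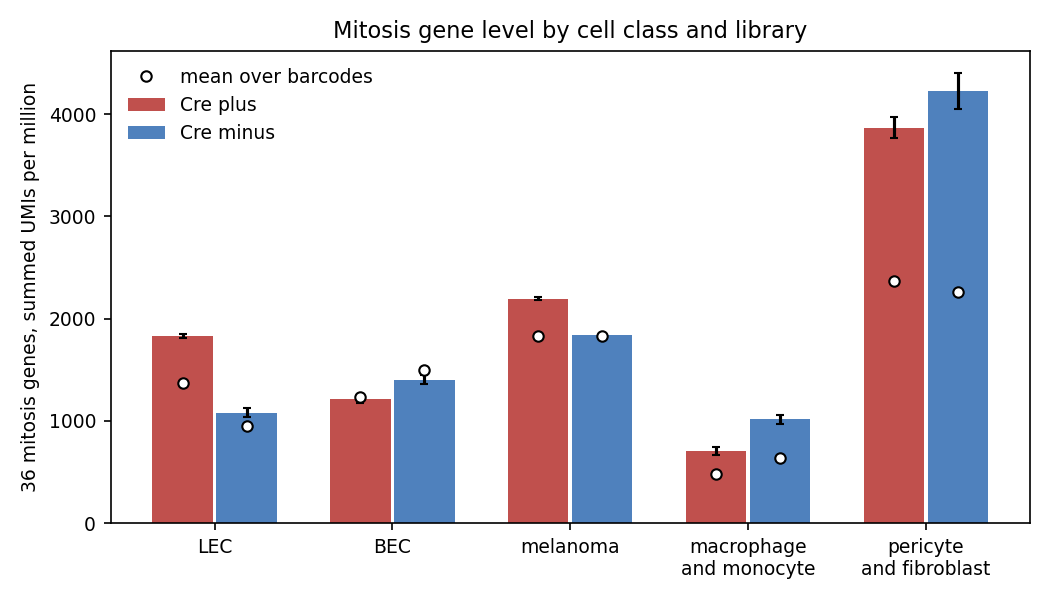
Summed UMIs of the 36 mitosis genes in CPM (vertical axis) in 5 cell classes (horizontal axis) of the Cre plus (red) and Cre minus (blue) libraries. Bars start at 0 and pool all barcodes, whiskers are exact 95% counting intervals, and open circles are the unweighted mean over barcodes. In LEC-like barcodes both measures are higher in Cre plus, whereas in melanoma-like barcodes only the pooled bars differ, at 2196 and 1840 CPM.

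In LEC-like barcodes the 36 genes summed to 1832 CPM (1811 to 1853) in Cre plus against 1079 CPM (1034 to 1124) in Cre minus. In BEC-like barcodes the order was the opposite, with 1211 CPM (1178 to 1245) in Cre plus against 1404 CPM (1363 to 1445) in Cre minus. Melanoma-like barcodes held 2196 CPM (2181 to 2211) and 1840 CPM (1830 to 1851). Melanoma-like barcodes thus exceeded both endothelial classes in each library. Pericyte and fibroblast barcodes, only 31 and 22, were highest at 3869 and 4223 CPM, and 47 and 65 macrophage and monocyte barcodes held 706 and 1015 CPM. In both of these small classes 2 barcodes in each library held 50% of the member UMIs. As an unweighted mean over barcodes, the LEC-like level was 1371 and 955 CPM, and the melanoma-like level was 1831 CPM in both libraries, so the pooled melanoma-like difference was not present per barcode.

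The mitosis transcripts came from few barcodes in every main class. Of the LEC-like class, 27 of 787 barcodes for Cre plus and 9 of 226 for Cre minus held 50% of all member UMIs. In BEC-like barcodes it was 8 of 208 and 7 of 240, and in melanoma-like barcodes 20 of 537 and 30 of 899. The pooled ratios below therefore weigh a small number of barcodes heavily. Without the 2 barcodes richest in member UMIs in each library, a choice made after seeing the data, the LEC-like levels were 1716 and 830 CPM. Those 2 were a larger share of the 226 Cre minus barcodes than of the 787 of Cre plus, so the wider gap is in part by construction.

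**Figure D2:**
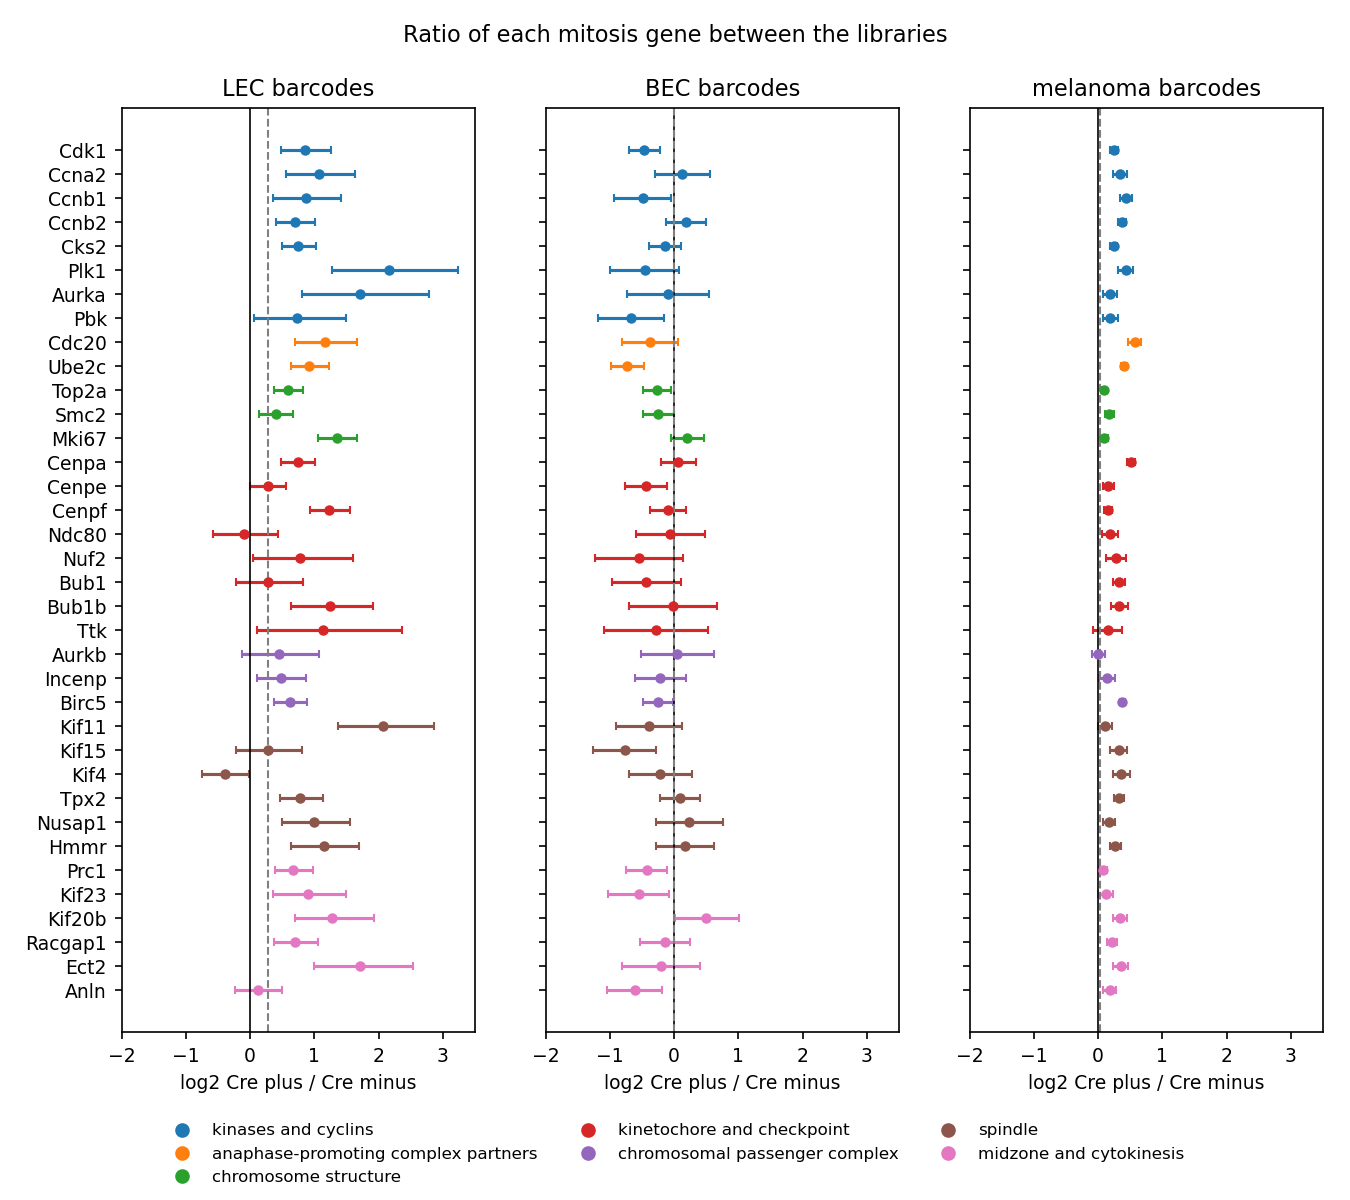
log2 ratio of CPM, Cre plus over Cre minus (horizontal axis), for each of the 36 genes (rows, colored by role) in LEC-like, BEC-like and melanoma-like barcodes. Points are ratios of summed UMIs, whiskers exact 95% counting intervals, and the dashed line marks the median of all genes in that class, 0.28 in LEC-like barcodes. In LEC-like barcodes 34 of 36 points lie above 0, in BEC-like barcodes 27 of 36 lie below it, and in melanoma-like barcodes all 36 lie above it.

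In LEC-like barcodes 34 of the 36 mitosis genes were higher in Cre plus, and the summed log2 ratio was 0.76 (0.70 to 0.83). The median over the members was 0.78, where the median of all 11226 genes with at least 50 UMIs was 0.28. Past 1.5-fold higher were 27 of 36 members, where 23.0% of all genes were, and past 1.5-fold lower were 0, where 2.74% of all genes were. The interval lay above 0 for 30 members, below 0 for Kif4, and held 0 for 5. Counts by sign, here and in the other classes and lists, stand without the share of all genes and are descriptions only. In LEC-like barcodes, where the median of all genes was 0.28, more of all genes lay above 0 than below. Depth and Malat1 content moved with genotype in this class: median UMIs per barcode were 14321 in Cre plus against 5629 in Cre minus, and 55.3% and 16.8% of barcodes were Malat1-rich, meaning that at least 0.1% of their UMIs were this nuclear RNA. With every barcode thinned to 2000 UMIs the summed log2 ratio was 0.77 (0.61 to 0.94), and 11 of the 19 members still measured were past 1.5-fold higher (35.1% of all genes in the thinned counts) and 1 lower (3.33%).

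The mitotic kinases and cyclins were all higher in Cre plus LEC-like barcodes, with 8 of 8 past 1.5-fold and a summed log2 ratio of 0.89 (0.74 to 1.04). Plk1, the polo kinase that acts on centrosomes, kinetochores and the cytokinetic machinery, had 359 UMIs (21.7 CPM) in Cre plus against 10 UMIs (4.83 CPM) in Cre minus. That is a log2 ratio of 2.17 (1.27 to 3.24), the highest of any member in this class. Aurka, the spindle-pole Aurora kinase, had 15.8 and 4.83 CPM. Cdk1, the catalytic kinase of mitosis, was at 54.4 and 30.0 CPM, and its partners Ccna2 and Ccnb1 at 32.5 and 15.5 CPM and at 29.1 and 15.9 CPM. The Ccnb1 log2 ratio was 0.87 (0.36 to 1.42). Cyclin Ccnb2 was at 75.6 and 46.4 CPM and the kinase subunit Cks2 at 105 and 62.3 CPM. Pbk, a mitotic protein kinase, had the kinase interval nearest 0, with a log2 ratio of 0.73 (0.06 to 1.49).

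Both partners of the anaphase-promoting complex were past 1.5-fold higher. Cdc20, its activator at metaphase, was at 43.3 and 19.3 CPM, with a log2 ratio of 1.16 (0.70 to 1.66). Ube2c, the ubiquitin-conjugating enzyme that works with the complex, was at 94.3 and 49.8 CPM, with a log2 ratio of 0.92 (0.63 to 1.22).

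Of the 3 chromosome genes, Mki67, which coats mitotic chromosomes, was the furthest apart. It had 122 CPM in Cre plus against 47.8 CPM in Cre minus, from 2021 and 99 UMIs, with a log2 ratio of 1.35 (1.06 to 1.66). Top2a, the topoisomerase that untangles sister chromatids, was at 127 and 84.1 CPM with a ratio of 0.60 (0.37 to 0.83). Smc2, a condensin subunit, was at 84.4 and 63.8 CPM with a ratio of 0.40 (0.15 to 0.67), short of 1.5-fold.

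Kinetochore and checkpoint genes were mixed. The kinetochore protein Cenpf was at 106 and 44.9 CPM, a log2 ratio of 1.23 (0.93 to 1.55), and the checkpoint kinase-like protein Bub1b at 26.3 and 11.1 CPM, a ratio of 1.24 (0.64 to 1.92). Cenpa, the histone variant of centromeres, was at 107 and 63.8 CPM. Ndc80, which binds microtubules at the kinetochore, was at 17.3 and 18.4 CPM, with a ratio of -0.09 and an interval that held 0 (-0.58 to 0.44). Its partner Nuf2 was at 13.2 and 7.73 CPM. The checkpoint kinase Bub1 had a ratio of 0.28 (-0.22 to 0.83), the motor Cenpe one of 0.27 (0.00 to 0.56), and the checkpoint kinase Ttk, with only 140 and 8 UMIs, one of 1.13 (0.11 to 2.37).

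The chromosomal passenger complex, in which Aurkb is the kinase, Incenp the scaffold and Birc5 the survivin subunit, had a summed log2 ratio of 0.57 (0.37 to 0.77). Only Birc5, at 102 and 66.2 CPM, was past 1.5-fold. The Aurkb interval held 0.

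Among the spindle genes Kif11 and Kif4 lay furthest apart. Kif11, the motor that pushes spindle poles apart, had 570 UMIs (34.5 CPM) in Cre plus against 17 UMIs (8.22 CPM) in Cre minus, a log2 ratio of 2.07 (1.38 to 2.86). Kif4, a chromosome-bound motor, had 464 UMIs (28.1 CPM) and 76 UMIs (36.7 CPM), a ratio of -0.39 (-0.74 to -0.02), the only member whose interval lay below 0. Kif15, which shares work with Kif11 at the spindle, had a ratio of 0.28 (-0.21 to 0.81). The microtubule proteins Tpx2, Nusap1 and Hmmr had ratios of 0.79, 1.00 and 1.14.

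At the midzone, where the dividing cell is cut, the summed log2 ratio was 0.74 (0.58 to 0.91). Ect2, the exchange factor that switches on the contractile ring, was at 25.4 and 7.73 CPM, from 420 and 16 UMIs, a ratio of 1.72 (1.00 to 2.54). The motor Kif20b had a ratio of 1.28 (0.70 to 1.92), the motor Kif23 one of 0.90, its partner Racgap1 one of 0.70 and the bundling protein Prc1 one of 0.68. The ring scaffold Anln, at 36.3 and 33.3 CPM, had a ratio of 0.12 (-0.24 to 0.50).

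Genes outside the 36 were read for comparison from lists by function. Of 40 other mitosis genes, 40 were higher in Cre plus LEC-like barcodes, with a median log2 ratio of 0.88. Past 1.5-fold higher were 30 of the 40 (23.0% of all genes). Of these, the spindle-pole protein Aspm, the centrosome kinase Nek2 and the motor Kif18a were furthest by the interval bound nearest 0, at 1.92, 3.54 and 1.96, Nek2 resting on 93 UMIs against 1 (1.03 to 8.86). Of 29 DNA replication genes, 21 were higher, with a median of 0.16, below the 0.28 of all genes. Past 1.5-fold, 4 of them were higher (23.0% of all genes) and 1 lower (2.74%). Among the regulators of mitosis genes, Lin9 had a ratio of 1.19 (0.42 to 2.08) and Lin54 one of 0.67 (0.11 to 1.28). The intervals of Foxm1, Mybl2, E2f1 and E2f8 held 0, on 12 to 26 UMIs in Cre minus.

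Within Malat1-rich LEC-like barcodes the summed log2 ratio was 0.45 and the member median 0.43, where the median of all genes was -0.09. There 13 of 36 members were past 1.5-fold higher (12.1% of all genes) and 1 past 1.5-fold lower (17.2%). This stratum rested on 38 Cre minus barcodes, of which 2 held 50% of the member UMIs. Without the 2 richest barcodes of each library the summed ratio was 1.24, and 31 of 36 members were past 1.5-fold higher (14.8% of all genes in that setting) and 0 lower (19.8%). Levels went from 1310 to 697 CPM in Cre minus and from 1789 to 1650 CPM in Cre plus. Removing 2 of 38 barcodes in Cre minus against 2 of 435 in Cre plus raises the ratio in part by construction. No conclusion is drawn from the rise. By the interval bound nearest 0, Ube2c was furthest in this stratum, at 80.2 and 15.1 CPM with a ratio of 2.41, followed by Kif11 at 1.81 and Prc1 at 1.15. Ndc80 was lower, at 18.2 and 30.2 CPM with a ratio of -0.73. Within Malat1-poor barcodes the summed ratio was 1.16 (1.07 to 1.26), and 32 of the 34 members with at least 50 UMIs were past 1.5-fold higher (19.0% of all genes) and 0 lower (3.05%). There Plk1 had 69 against 4 UMIs and a ratio of 2.91, Ccnb1 had 96 against 7 and a ratio of 2.58, and Ect2 had 51 against 1 and a ratio of 4.48 (1.94 to 9.81). Kif4 was again below 0, at -0.19, with an interval that held 0. The members were thus higher in Cre plus as a sum in both strata.

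In BEC-like barcodes the mitosis genes leaned the other way, with 27 of 36 lower in Cre plus. The summed log2 ratio was -0.21 (-0.27 to -0.15) and the median -0.23, where the median of all 9500 genes was 0.00. Past 1.5-fold were 0 members higher (6.34% of all genes) and 4 lower (4.71%): Ube2c, Kif15, Pbk and Anln. By the interval bound nearest 0 Ube2c was furthest, at 54.5 CPM in Cre plus against 90.3 CPM in Cre minus, with a ratio of -0.73 (-0.98 to -0.47). Kif15 had a ratio of -0.76 (-1.26 to -0.28) and Cdk1 one of -0.46 (-0.71 to -0.22). Kif20b was the only member whose interval lay above 0, at 0.50 (0.02 to 1.00). Mki67 was at 73.5 and 63.8 CPM, Cenpf at 58.1 and 62.0, Top2a at 82.8 and 99.6, Ccnb1 at 19.7 and 27.7 and Cdc20 at 21.4 and 27.7. In the 63 and 97 Malat1-poor barcodes the summed ratio was -0.86 (-1.02 to -0.70), and 10 of the 13 members measured were past 1.5-fold lower (9.1% of all genes) and 0 higher (7.58%). In Malat1-rich barcodes the sum was 0.026 (-0.04 to 0.09), with 2 members past 1.5-fold higher (7.91%) and 2 lower (8.57%). Mki67 had opposite signs in the strata, 0.62 (0.32 to 0.93) in Malat1-rich and -1.78 (-2.79 to -0.89) in Malat1-poor barcodes. Only 3 of the 97 Malat1-poor Cre minus barcodes held 50% of the member UMIs. Of those 97 barcodes 8 lay near the gate, against 0 of the 63 in Cre plus. A stricter marker gate gave a summed ratio of 0.037 over all BEC-like barcodes, and thinning gave -0.16 (-0.34 to 0.02).

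In melanoma-like barcodes all 36 members were higher in Cre plus, by a small amount, and the interval lay above 0 for 34. Counting intervals are narrow at this depth, and the share of all genes with such intervals is not given. The summed log2 ratio was 0.26 (0.24 to 0.27), where the median of all genes was 0.03, and 0 members were past 1.5-fold in either direction (2.63% of all genes were higher and 2.82% lower). By the interval bound nearest 0 Cdc20 was furthest, at 45.2 and 30.5 CPM with a ratio of 0.57 (0.47 to 0.66), then Cenpa at 97.2 and 68.2 CPM with 0.51 (0.45 to 0.58) and Ube2c at 156 and 118 CPM with 0.40 (0.35 to 0.45). Top2a and Mki67 were close to 0, at 0.08 (0.04 to 0.13) and 0.09 (0.04 to 0.15), Cenpf was at 0.15 and Ccnb1 at 0.43. Aurkb, at 36.5 and 36.4 CPM, had a ratio of 0.00 (-0.09 to 0.10). The late genes summed to a ratio of 0.31 (0.30 to 0.33) and the early genes to 0.16 (0.14 to 0.19). In Malat1-rich melanoma-like barcodes the sum was 0.26, with 0 members past 1.5-fold higher (2.55% of all genes) and 0 lower (3.03%). In Malat1-poor ones the sum was 0.25, with 4 of 36 members past 1.5-fold higher (1.47% of all genes) and 0 lower (4.4%). In that stratum 6 of 323 Cre plus barcodes held 50% of the member UMIs, and without the 2 richest in each library the sum was -0.12 (-0.16 to -0.08). Thinned to 2000 UMIs per barcode, the summed ratio over all melanoma-like barcodes was 0.087 (0.00 to 0.17), and as a mean over barcodes it was -0.000233. The same melanoma line was placed in mice of both genotypes.

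**Figure D3:**
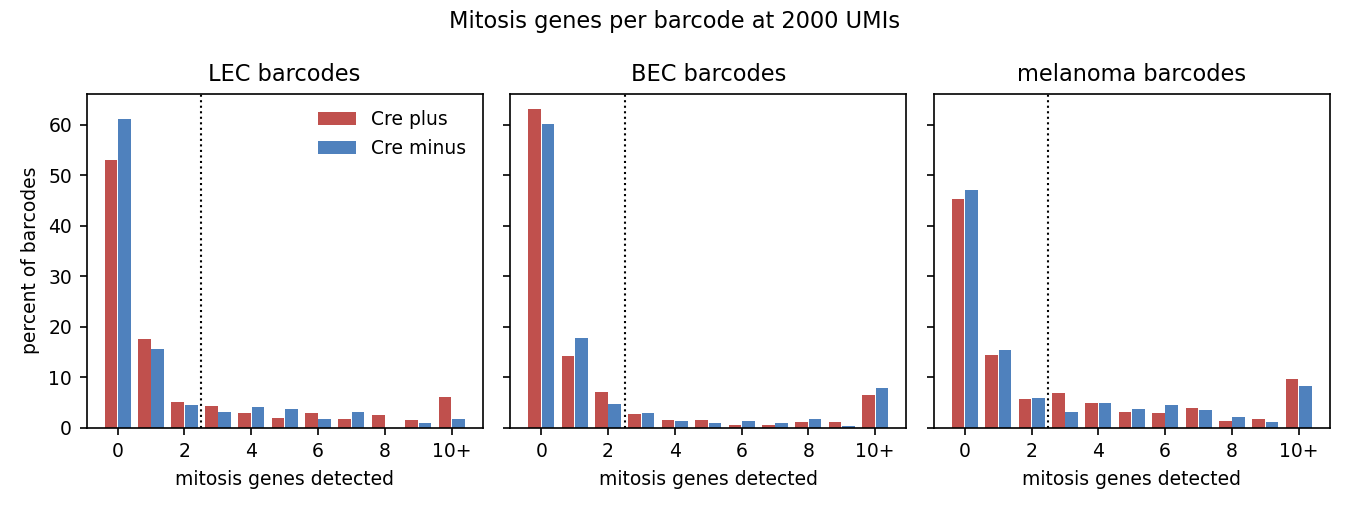
Percent of barcodes (vertical axis) by number of different mitosis genes detected (horizontal axis, 10 or more pooled) after each barcode was thinned to 2000 UMIs, in Cre plus (red) and Cre minus (blue). The dotted line marks the threshold of 3 genes, past which lie 24.1% and 18.7% of LEC-like barcodes, 15.8% and 17.3% of BEC-like and 34.4% and 31.5% of melanoma-like barcodes.

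To compare the share of dividing barcodes at equal depth, each barcode of at least 2000 UMIs was thinned to that number. A barcode with 3 or more different mitosis genes was called cycling. In LEC-like barcodes this gave 176 of 731 (24.1%, 21.0 to 27.3) in Cre plus against 41 of 219 (18.7%, 13.8 to 24.5) in Cre minus, with intervals that overlap. The shares before thinning were 53.0% and 33.6%, and 56 and 7 shallower barcodes were left out. Thinned barcodes held on average 2.85 and 1.67 member UMIs, and cycling barcodes 10.6 and 7.51. The cycling barcodes held 89.5% and 84.4% of all member UMIs in the thinned LEC-like counts. In BEC-like barcodes 15.8% (10.8 to 21.8) and 17.3% (12.7 to 22.8) were cycling, with 43.8% and 30.8% before thinning and 24 and 9 left out. In melanoma-like barcodes it was 34.4% (30.3 to 38.7) and 31.5% (28.5 to 34.7), with 65.9% and 64.5% before thinning and 26 and 27 left out. None of these 3 pairs separated beyond counting error. Cycling LEC-like barcodes had more UMIs before thinning than those with no member, at medians of 18468 against 14382 for Cre plus and 7273 against 4958 for Cre minus.

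The 40 other mitosis genes, of which none is a member, gave a second count of dividing barcodes. With 3 or more of them, the marked share of LEC-like barcodes was 19.0% (16.2 to 22.1) in Cre plus against 12.3% (8.28 to 17.4) in Cre minus. The marked barcodes held 11.4 ± 8.21 member UMIs in Cre plus against 7.59 ± 4.94 in Cre minus (mean ± SD over 139 and 27 barcodes), against 0.853 and 0.833 in the rest. Members were thus about as scarce outside these barcodes in both libraries, and 87.8% and 85.2% of the marked barcodes were also cycling by the members. Barcodes with 3 or more replication genes made up 20.7% and 21.5% of the LEC-like barcodes. Of cycling LEC-like barcodes 39.8% and 48.8% also passed on replication genes, against 10.8% and 10.4% of those with no member.

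Barcodes of red cells, with over 50% haemoglobin UMIs, were used as a background for free RNA. Their median UMIs outside haemoglobin were only 256.5 and 324, too few for a share of cycling barcodes to be set beside that of the main classes. Outside haemoglobin their member level was 2436 and 2683 CPM, but this was carried by few genes. Ube2c gave 172 of 244 and 186 of 305 member UMIs, and Nusap1 gave 40 and 76. The other 34 members gave 32 and 43 UMIs, or 320 and 378 CPM. Red-cell barcodes thus held Ube2c and Nusap1 at a level of their own. The UMIs of the other members were few at this low depth, so their number alone does not show a low level. For scale, all members together, Ube2c and Nusap1 included, were at 1832 CPM (Cre plus) and 1079 CPM (Cre minus) in LEC-like barcodes. The part of free RNA in the levels of the main classes was not tested.

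Members were found together in the same thinned barcodes. In Cre plus LEC-like barcodes Cenpf was detected in 40 of 76 barcodes with Mki67 (52.6%, 40.8 to 64.2) and in 5.65% of 655 without it. Top2a was detected in 48.7% of those with Mki67 and 6.41% of those without. Of 28 barcodes with Ccnb1, 18 (64.3%) held Mki67, 16 (57.1%) Top2a and 12 (42.9%) Cdc20. In Cre minus only 9 LEC-like barcodes held Mki67, and 4 of these held Top2a and 1 Cenpf, counts too low to compare. In melanoma-like barcodes Top2a was found in 25 of 52 barcodes with Mki67 in Cre plus (48.1%) against 31 of 67 in Cre minus (46.3%). These pairs share library and class, and are given as a description.

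Early and late members were also found together. In Cre plus LEC-like barcodes, 85.1% (76.3 to 91.6) of barcodes with at least 2 early genes held at least 2 late genes, against 12.9% (10.4 to 15.7) of the others. In Cre minus it was 71.4% (47.8 to 88.7) against 11.1% (7.10 to 16.3). Barcodes with late genes alone, 82 in Cre plus against 22 in Cre minus, outnumbered those with early genes alone, 14 and 6. The late list is longer, so these numbers do not compare phases of the cycle. BEC-like barcodes showed the same order, with 12 and 11 late alone and 5 and 1 early alone.

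Among genes outside the 36, likeness to the members was ranked by the ratio of detection in cycling over member-free LEC-like barcodes, both libraries together. Counts under 3 member-free barcodes were set to 3 for this ratio, and the first 8 genes were taken. They were Cdca8, Tacc3, Cenpq, Hist1h1b, Cdca3, Cdkn3, Cenpw and Plk4. Cdca8 was detected in 23.0% of 217 cycling barcodes and 0.383% of 522 member-free barcodes. Plk4, the last of the 8, was detected in 12.0% and 0.383%, and Spc24 and Cep55, not among the 8, had the same ratio. Of these 8, 5 are in the list of 40 other mitosis genes.

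**Figure D4:**
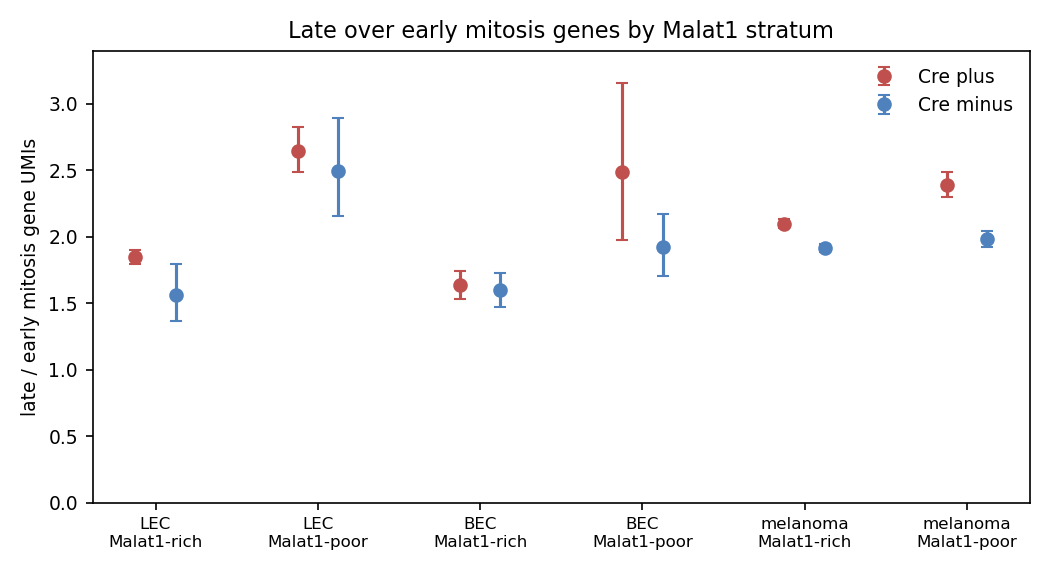
UMIs of the 16 late mitosis genes divided by UMIs of the 9 early ones (vertical axis) in Malat1-rich and Malat1-poor barcodes of 3 classes, for Cre plus (red) and Cre minus (blue). Points are pooled UMIs and whiskers exact 95% counting intervals. In all 6 pairs of class and library the Malat1-poor value is above the Malat1-rich one, as in LEC-like Cre plus with 2.65 against 1.85.

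Over all barcodes of the endothelial classes, the counting intervals of the late over early ratio overlapped between genotypes. In LEC-like barcodes the 16 late genes had 16551 and the 9 early genes 8390 UMIs in Cre plus, a ratio of 1.97 (1.92 to 2.03). In Cre minus they had 1187 and 607, a ratio of 1.96 (1.77 to 2.16). In BEC-like barcodes the ratio was 1.69 (1.59 to 1.80) in Cre plus against 1.69 (1.59 to 1.81) in Cre minus. In melanoma-like barcodes the intervals were apart, at 2.15 (2.11 to 2.18) in Cre plus against 1.93 (1.90 to 1.96) in Cre minus.

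The late over early ratio was higher in Malat1-poor than in Malat1-rich barcodes in 6 of 6 pairs of class and library. In LEC-like barcodes it was 2.65 against 1.85 for Cre plus and 2.49 against 1.57 for Cre minus. In BEC-like barcodes it was 2.49 against 1.64 and 1.92 against 1.60, and in melanoma-like barcodes 2.39 against 2.10 and 1.98 against 1.92. In the BEC-like and melanoma-like barcodes of Cre minus the counting intervals of the strata overlapped. Within each stratum of each class the ratio was higher in Cre plus. The genotypes' intervals overlapped in Malat1-poor LEC-like barcodes and in both BEC-like strata, and were apart in both melanoma-like strata. The pooled endothelial ratios mix strata of unequal size, since 55.3% and 16.8% of LEC-like barcodes were Malat1-rich. In Malat1-rich LEC-like barcodes the genotypes' intervals were barely apart, 1.795 to 1.902 and 1.367 to 1.794. Without the 2 richest barcodes of each library, a choice made after seeing the data, these ratios were 1.80 (1.75 to 1.86) and 1.77 (1.45 to 2.17), with intervals that overlap. Malat1-poor barcodes had fewer UMIs in every pair, at a median of 5131 against 29265 in Cre plus LEC-like barcodes, and the part of depth was not tested.

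**Figure D5:**
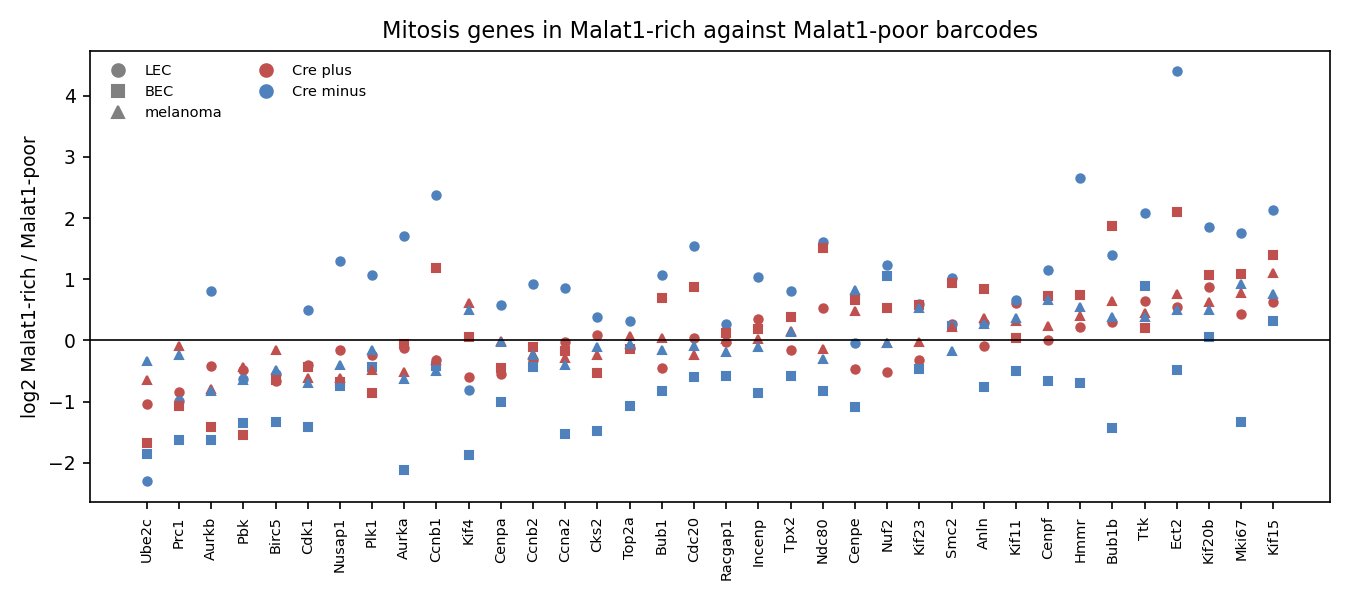
log2 ratio of CPM in Malat1-rich over Malat1-poor barcodes (vertical axis) for each of the 36 genes (horizontal axis, ordered by median), with 1 point per class (shape) and library (color). Ube2c, Prc1, Pbk and Birc5 lie below 0 in all 6 points, and Kif15, Kif20b and Ttk lie above 0 in all 6.

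Single members moved with Malat1 in opposite directions. Ube2c, Prc1, Pbk and Birc5 were lower in Malat1-rich barcodes in all 6 pairs, with median log2 ratios of -1.36, -0.91, -0.63 and -0.59. The 3 members higher in all 6 were Kif15, Kif20b and Ttk, at medians of 0.93, 0.75 and 0.55, and the other 29 had both signs. Of the 8815 genes with UMIs in both strata of all 6 pairs, 12.7% were lower and 44.3% higher in all 6. The 4 lower members are thus no larger a share of the 36 than of all genes, and the 3 higher members are a smaller one. The interval left out 0 in all 6 pairs for Ube2c and Birc5, in 5 for Prc1 and Pbk and in 4 for Kif15 and Kif20b. For Ttk all 6 intervals held 0. Ube2c was at 80.2 CPM in Malat1-rich and 165 CPM in Malat1-poor LEC-like barcodes of Cre plus, and at 15.1 and 74.4 CPM in Cre minus. In melanoma-like barcodes, which have the most UMIs, Ube2c was at 143 and 222 CPM for Cre plus and at 113 and 142 CPM for Cre minus. Mki67 was higher in Malat1-rich barcodes in 5 of 6 pairs, with BEC-like Cre minus as the exception at 49.8 and 125 CPM. As a choice made after seeing the data, the 4 consistently lower genes were removed. Ube2c, Prc1 and Birc5 are late genes, so by construction their removal lowers the late over early ratio more in Malat1-poor barcodes. No conclusion is drawn from the change. The ratio was then higher in Malat1-poor barcodes in 5 of 6 pairs. The intervals of the strata overlapped in 4 of these and were apart only in LEC-like Cre plus. In melanoma-like Cre minus they were apart in the other direction, at 1.17 (1.13 to 1.21) against 1.27 (1.25 to 1.30).

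The members also differ in the length of DNA they span, taken from GENCODE M21 on mm10. Birc5, Ube2c, Pbk and Prc1 span 6.49, 8.93, 12.0 and 21.8 kb, and Ttk, Kif20b and Kif15 span 37.7, 53.4 and 67.7 kb. Across the 36 genes, Spearman's rho between span and the Malat1-rich over Malat1-poor ratio was 0.78 and 0.66 in melanoma-like barcodes of Cre plus and Cre minus. It was 0.53 and 0.37 in BEC-like and 0.36 and 0.16 in LEC-like barcodes. Genes are not independent replicates, the points share library and class, and Kif4, with the longest span at 101 kb, had 3 values of each sign.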

How the data were processed

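Single-cell 3′ RNA libraries of 2 genotypes, Cre plus and Cre minus, were read from the deposited matrices, which hold raw UMI counts per gene and barcode as whole numbers, per the file headers. Cell Ranger 7.0.0 and mm10 are listed by the submitters' processing notes, and no gene annotation was named by the sources used here. The libraries held 66704257 and 76967583 UMIs. The members and lists were chosen with earlier results of these data known, and the early and late sets were assigned by hand from general knowledge.

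Barcodes were kept at 500 genes or more where mitochondrial UMIs made up less than 10%. A barcode took the class of its highest marker set where this had at least 5 UMIs per 10000 and 2 markers, with the next class at most 50% of it; these limits were set after seeing the data. Barcodes past that limit were set aside as mixed. For each class the UMIs of a library were added up and expressed as CPM. Ratios have exact conditional binomial intervals, levels exact Poisson intervals and shares exact Clopper-Pearson intervals, at 95%. A member was measured at 50 UMIs over both libraries, and a change of 1.5-fold stands in for a call because 1 library per genotype allows no test. Members named singly were, by role, any of the 36, with full values for at most 3 in each direction per class by the interval bound nearest 0, plus Mki67, Top2a, Ccnb1, Cdc20 and Cenpf. Outside the members they were 6 transcription factors, at most 3 per list by the same bound, and the 8 most alike in detection. Further members given with intervals, and the 6 promoters printed, were picked after their values were seen. Barcodes were thinned once, without replacement, to 2000 UMIs. Ratios were tested on simulated Poisson counts of pooled LEC-like barcodes. These hold no differences between barcodes, so the spread between barcodes was not tested. Thinning was checked to give the fixed depth on barcodes of the Cre plus library. Positions come from GENCODE M21 and promoter windows from RefSeq on GRCm38.p6. Python 3.11.15, numpy 2.4.6, scipy 1.17.1 and pandas 2.3.3 were used. Alternatives were other filters, gates, scalings, minimum counts, folds, thinning depths and Malat1 strata.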

Additional observations from a re-analysis of the deposited data

Results flagged for a closer look

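The summed ratio of the 36 mitosis genes, Cre plus over Cre minus, had opposite signs in the classes: log2 0.76 in LEC-like, -0.21 in BEC-like and 0.26 in melanoma-like barcodes. Only the LEC-like sign held in every alternative run. The BEC-like sum was 0.037 with a stricter marker gate and 0.026 in Malat1-rich barcodes. Thinned, it was -0.16 with an interval that held 0 (-0.34 to 0.02). As a mean over barcodes the melanoma-like sum was -0.000233. With 1 library per genotype the difference between the classes was not tested.

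Barcodes outside the comparisons also held mitosis gene UMIs. Scaled to UMIs without haemoglobin, barcodes with 10% or more mitochondrial UMIs held 727 CPM in Cre plus against 1322 CPM in Cre minus. Mixed barcodes held 1243 and 1324 CPM. Barcodes without a class held 2016 and 1264 CPM, at median depths of 2378 and 2569 UMIs.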

How the results depend on the processing

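No paired analysis was possible because each genotype has 1 library. Over 30 results and their alternatives, 156 of 252 values stayed close to the value reported, 92 moved and 4 changed sign; except where a line below shows it, the cause was not tested. In LEC-like barcodes every alternative that was run kept the summed and median ratios above 0. Counts in this part are members past the fold named. The share of all genes past that fold is given above for the main and Malat1 settings and for thinned LEC-like barcodes. Other counts below stand without such a share and are not read as high or low.

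With a stricter marker gate, LEC-like levels were 1811 and 1133 CPM, with a summed ratio of 0.68 and a median of 0.71 on the log2 scale. BEC-like Cre minus was at 1180 CPM, the BEC-like sum changed sign to 0.037, its median was -0.026, and 3 members were higher and 1 lower. Melanoma-like Cre plus was at 2225 CPM, with a sum of 0.27, a median of 0.27 and 1 member higher. With barcodes under 20% mitochondrial UMIs, melanoma-like Cre plus was at 2171 CPM.

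Without mitochondrial, ribosomal-protein and haemoglobin UMIs the LEC-like sum was 0.68 and the median 0.70. Thinned to 2000 UMIs, the LEC-like median was 0.69 with 11 members higher and 1 lower, the BEC-like median was -0.0079 with 2 lower, and the melanoma-like sum was 0.087, the median 0.12, with 2 higher and 1 lower. Fewer members were measured there: 19, 8 and 30 in the 3 classes. Thinned late over early ratios were 2.21 and 2.29 (LEC-like, Cre plus and Cre minus), 1.51 and 1.97 (BEC-like) and 2.28 and 2.13 (melanoma-like). Past 2-fold, 13 LEC-like members were higher and 0 BEC-like members lower, and with at least 200 UMIs 1 BEC-like member was lower.

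In Malat1-rich barcodes the LEC-like sum was 0.45, the median 0.43, with 13 higher and 1 lower, and late over early ratios of 1.85 and 1.57. The BEC-like sum changed sign to 0.026, with a median of -0.0098 and 2 members in each direction. Melanoma-like Cre plus had a late over early ratio of 2.10, and 43.8% and 35.2% of melanoma-like barcodes were cycling. In Malat1-poor barcodes the LEC-like sum was 1.16 and the median 1.42, with late over early ratios of 2.65 and 2.49. The BEC-like sum was -0.86 and the median -0.72, with 10 lower, late over early ratios of 2.49 and 1.92, and 23.9% of Cre plus barcodes cycling. The melanoma-like median was 0.20, with 4 higher, late over early ratios of 2.39 and 1.98, and 28.2% of Cre plus barcodes cycling.

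Without the 2 barcodes richest in member UMIs in each library, an alternative chosen after seeing the data, the LEC-like sum was 1.05 and the median 1.13. Equal numbers of barcodes are a larger share of the library with fewer in the class, so such shifts are in part by construction. In that setting the LEC-like Cre minus late over early ratio was 2.22, 2 BEC-like members were higher, and the melanoma-like sum was 0.23 and the median 0.22. As a mean over barcodes the LEC-like sum was 0.52 and the median 0.54, and the BEC-like sum was -0.27 and the median -0.16. The melanoma-like sum and median changed sign, to -0.000233 and -0.027.

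Without the most abundant gene of each list, the late over early ratios were 2.35 and 2.44 (LEC-like), 1.89 and 1.91 (BEC-like) and 2.5 and 2.31 (melanoma-like). Cycling shares move with depth and threshold by construction. At 1000 UMIs they were 15.5% and 9.73% (LEC-like) and 24.4% and 23.4% (melanoma-like), and at 5000 UMIs 33.7% and 29.7%, and 42.3% and 42.8%. With at least 2 members the LEC-like Cre plus share was 29.3%, the BEC-like Cre plus share 22.8% and the melanoma-like shares 40.1% and 37.4%. With at least 5 members the LEC-like shares were 16.8% and 11.4% and the melanoma-like shares 22.7% and 23.5%, so the melanoma-like order between libraries changed with the setting.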

Other observations

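In T and NK barcodes, 9 in Cre plus against 10 in Cre minus, the mitosis genes summed to 949 and 6821 CPM, and 1 barcode in each library held 50% of those UMIs. Among pericyte and fibroblast barcodes 34.5% of 29 in Cre plus against 40.9% of 22 in Cre minus were cycling after thinning. The late over early ratio in that class was 2.19 (2.05 to 2.34) in Cre plus against 1.44 (1.31 to 1.58) in Cre minus. In macrophage and monocyte barcodes it was 1.79 (1.58 to 2.03) and 1.51 (1.37 to 1.67). These classes hold few barcodes, of which 2 in each library gave 50% of the member UMIs.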
